A study of Mus musculus with 2 samples.

Results

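Cytosolic ribosomal protein genes encode the proteins that, with ribosomal RNA, form the small (Rps) and large (Rpl) subunits of the ribosome. They were described here across the cell types of mouse liver immune preparations profiled by droplet single-cell RNA sequencing. Members were gene symbols of Rpl or Rps followed by a number, or Rplp0, Rplp1, Rplp2 or Rpsa, with pseudogene names left out. They were selected on their name and on their summed unique molecular identifiers (UMI, 1 per captured transcript molecule), which had to reach 1000. The sum ran over barcodes that had 500 or more UMI, 200 or more genes and no more than 10% of UMI from mitochondrial genes. The shares and departures that follow come from the same UMI and are descriptions. Of 31053 genes in the gene file, 83 symbols had such a name and 80 passed the UMI limit, 32 of the small and 48 of the large subunit. Among all genes, 7216 passed the same limit. The members just inside it were Rpl7l1 with 2810 UMI, Rps27l with 12082 UMI and Rpl13a with 14872 UMI. Those outside it were Rpl3l with 78, Rpl39l with 50 and Rpl10l with 2 UMI.

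The labels name 2 samples, 1 from Rcrin KO mice (a conditional knockout in liver) and 1 from Rcrin flox mice (WT), both 8 weeks old and both of the strain given as RedMUC298trTg. Livers were digested with Collagenase IV and the sorted cells were loaded on the 10x Chromium system. The labels give neither the Cre driver, nor the sort gate, nor the number of animals. Each of the 3 files of the Rcrin KO sample equalled that of the WT sample in every byte, so the data amount to 1 matrix. No cell was assigned to a genotype, the knockout could not be checked, and no test or p-value is possible. Each value below describes that matrix.

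The matrix held 11192 barcodes, of which 10366 passed the filters and 351 of those (3.39%) were removed as called doublets. The remaining 10015 cells had a median of 4250 UMI, between 508 and 93990, and ribosomal protein genes took 17.5% of all UMI. Cells were placed in types by counting which of 8 marker genes per type had a UMI, so that no ribosomal gene entered the gates. A cell needed at least 3 markers of a type and at least 2 more than of any other type. This placed 9162 cells (91.5%), and 11 types with at least 50 cells are described. For each of them, 5 further markers outside the gate were summed, and in every type that sum was highest in its own type, with 4 or 5 of the 5 markers past 1.5-fold over all other gated cells. Intervals are exact 95% intervals for counting error only. They leave out variation between animals, and those on summed UMI also leave out variation between cells.

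Ribosomal proteins are made in nearly equal numbers because each ribosome holds 1 copy of most of them, and their mRNAs share a start with a run of pyrimidines (the 5′ TOP tract), through which mTOR and the RNA-binding protein Larp1 tie their translation to growth signals. MYC raises the transcription of these genes and of the genes that assemble ribosomes in the nucleolus. Lymphocytes enlarge their ribosome pool when they are activated, whereas neutrophils make most of their granule proteins as precursors in the bone marrow. A few members have paralogs whose use differs between tissues, and some ribosomal proteins are also known for roles outside the ribosome.

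Promoter sequences are shown for 6 members that are described below as out of step with the rest, chosen after their values were seen so that members high in neutrophil-like (Rps9, Rpl37), pDC-like (Rpl31) and T-like (Rpl12) cells and 1 paralog pair (Rps27, Rps27l) are included. Each window runs from 60 bases before to 20 bases after the transcription start in RefSeq (build GRCm38.p6), 5′ to 3′ on the gene's strand. Capitals mark CCGGAAG or its reverse complement CTTCCGG, letters recognised by ETS family factors such as GABPA, or TCTTTCC or its reverse complement GGAAAGA. The window of Rps9 is chr7:3703981-3704060 (plus strand), that of Rpl12 chr2:32961652-32961731 (plus), that of Rpl31 chr1:39367791-39367870 (plus), that of Rpl37 chr15:5116553-5116632 (plus), that of Rps27 chr3:90213629-90213708 (minus) and that of the first of 2 Rps27l starts chr9:66946026-66946105 (plus).
Rps9: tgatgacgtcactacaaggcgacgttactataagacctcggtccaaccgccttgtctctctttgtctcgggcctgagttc
Rpl12: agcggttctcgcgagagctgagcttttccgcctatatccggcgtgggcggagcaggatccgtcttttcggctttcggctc
Rpl31: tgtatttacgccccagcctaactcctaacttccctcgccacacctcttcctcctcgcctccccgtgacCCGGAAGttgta
Rpl37: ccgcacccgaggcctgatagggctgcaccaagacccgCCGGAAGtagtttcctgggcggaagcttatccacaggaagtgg
Rps27: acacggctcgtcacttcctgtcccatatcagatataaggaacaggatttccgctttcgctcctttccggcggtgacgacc
Rps27l: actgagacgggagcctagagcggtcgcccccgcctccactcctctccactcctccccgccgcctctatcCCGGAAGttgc
CCGGAAG stood in the windows of Rpl31, Rpl37 and Rps27l, and in none of the shown windows of Rps9, Rpl12 and Rps27. Over the full 300-base windows, on both strands, it was found in 25 of the 60 members with an entry (41.7%), against 9.93% of 27025 genes. TCTTTCC was found in 15 of the 60 members (25%), against 9.46% of genes. Both motifs were counted separately, and a match is a description of letters only.

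The share of UMI in ribosomal protein genes spread widely over the types. It was highest in T-like cells, at 25.7% (25.66 to 25.71) in 2291 cells, and next in B-like cells, at 23.6% (23.55 to 23.60) in 2991 cells. Classical monocyte-like cells followed at 18.6% in 306 cells and NK-like cells at 17.8% in 440 cells. ILC1-like cells (177 cells, 16.5%), pDC-like cells (250 cells, 16.4%) and nonclassical monocyte-like cells (276 cells, 16.3%) lay close together. Plasma-like cells had 14.4% in 55 cells.

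The 3 lowest types were Kupffer-like cells, at 10.2% in 519 cells, endothelial-like cells, at 8.76% in 848 cells, and neutrophil-like cells, at 3.63% (3.61 to 3.65) in 893 cells. Over single cells, the middle 50% of neutrophil-like cells lay between 2.69% and 4.15%, below the lower quartile of each of the other types, the nearest being plasma-like cells at 6.99%. T-like cells spread over 18.3% to 31.7%, and B-like cells over 20.1% to 26.9%. In UMI per cell, the median was 87 ribosomal UMI in neutrophil-like cells, 1229 in T-like cells and 2664 in plasma-like cells, against median totals of 2562, 5003 and 19114 UMI. A Kupffer-like cell thus held 1236 ribosomal UMI, about as many as a T-like cell, at a lower share. The small subunit took between 46.0% of ribosomal UMI, in pDC-like cells, and 50.1%, in neutrophil-like cells.

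**Figure D1:**
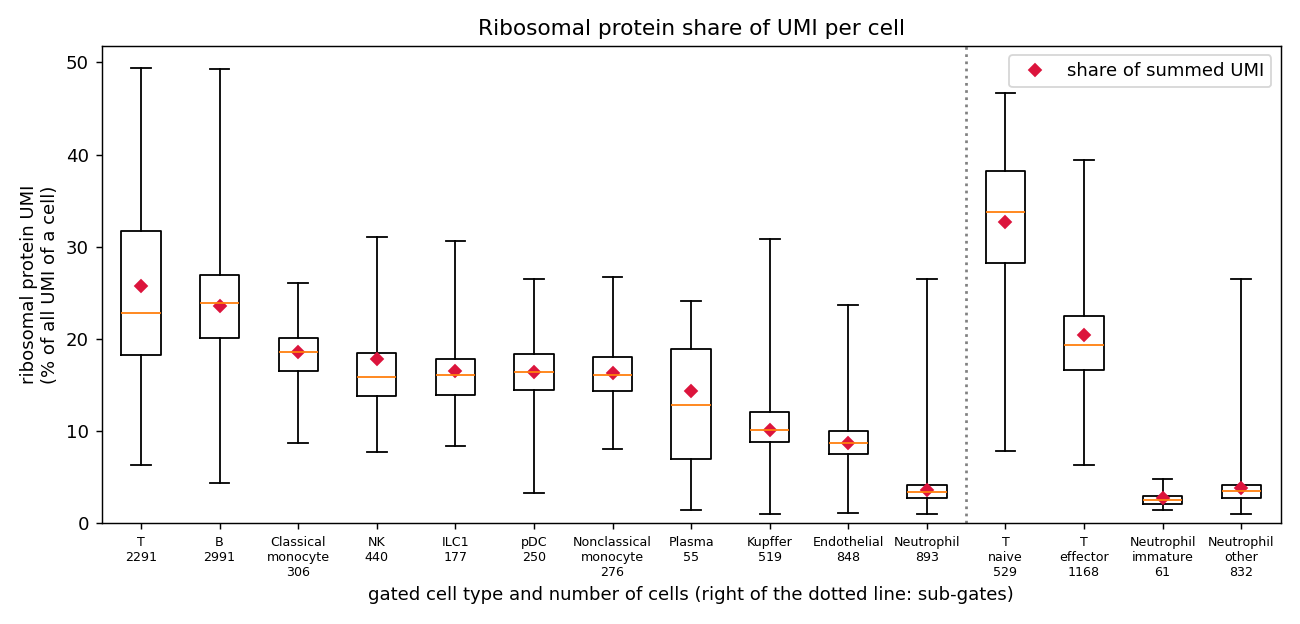
Ribosomal protein UMI as a percent of all UMI of a cell (y axis) by gated cell type with its number of cells (x axis); boxes give the quartiles and median over cells, whiskers the lowest and highest cell, and red diamonds the share of summed UMI. Types run from T-like cells (25.7%) to neutrophil-like cells (3.63%), and naive T-like cells right of the dotted line reach 32.6%.

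Mitochondrial share and depth also differed between types. The median mitochondrial share was 1.57% in neutrophil-like cells, 4.68% in T-like cells and 6.27% in B-like cells. Among T-like cells, those above the type's median depth had 26.9% ribosomal UMI and those below it 23.1%, while the corresponding shares were 3.49% and 3.87% in neutrophil-like cells. The shares above and below the median depth were 19.2% and 15.2% in NK-like cells and 15.8% and 11.9% in plasma-like cells. These gaps, and that in T-like cells, were wider than the difference in share between T-like and B-like cells. In Kupffer-like, pDC-like, classical and nonclassical monocyte-like cells the lower depth had the higher share, as in neutrophil-like cells. The part of depth in the differences between types was not tested. Neutrophil-like cells also held UMI of the check markers of other types. The 5 check markers of B-like cells summed to 23.7 CPM (UMI per 1000000) there, against 1765 CPM in B-like cells, and those of T-like cells to 14.4 CPM, against 2600 CPM in T-like cells. Over all the other lists the sum in neutrophil-like cells lay between 7.77 CPM (cholangiocyte) and 6452 CPM (classical monocyte, against 33013 CPM in classical monocyte-like cells). It was 5701 CPM for basophil, 1130.2 CPM for cDC1, 1101 CPM for Cd209a DC and 943.0 CPM for nonclassical monocyte markers, the nonclassical sum being 3903 CPM in its own type. The part of cells of other types or of free RNA in the low ribosomal levels of neutrophil-like cells was not tested.

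Within T-like cells, naive and effector cells stood apart. Naive T-like cells (2 or more naive T cell genes, such as Lef1, Ccr7 and Tcf7, and under 2 of the effector genes) had 32.6% ribosomal UMI in 529 cells, and effector T-like cells (2 or more of Gzmb, Gzmk, Ccl5, Nkg7, Cxcr6 and Id2, and under 2 of the naive genes) had 20.4% in 1168 cells. The ratio was 1.60 (1.596 to 1.604). The middle 50% of cells did not overlap, at 28.3% to 38.3% in naive and 16.7% to 22.4% in effector cells, and median depths were close, at 4944 and 4592 UMI. Of the 80 members, 47 were past 1.5-fold higher in naive than in effector cells and 1 was past it lower, whereas 9.06% of all genes with 1000 UMI were higher and 25% lower. Rps20 had 6840.3 CPM in naive and 3011.9 CPM in effector cells, a ratio of 2.27 (2.23 to 2.32). Rps27l went the other way, at 89.2 CPM in naive and 140.1 CPM in effector cells (0.637, 0.551 to 0.734).

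Cycling T-like cells had a lower ribosomal share than the others. The 139 cycling T-like cells, with 3 or more of 8 cell cycle genes such as Mki67 and Top2a, had 20.7%, and the 2152 non-cycling T-like cells had 26.5%. Effector T-like cells as a whole had 20.4% and naive T-like cells 32.6%. Cycling and non-cycling T-like cells were not compared within these states, so the part of T cell state was not tested. Over all gated cells, 238 cycling cells had 19.5% and the rest 18.1%. The median depth of these 238 cycling cells was 14255.5 UMI, against 4058 UMI in the rest of the gated cells.

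Immature neutrophil-like cells (2 or more of the granule genes Ngp, Camp, Ltf and Chil3) had a lower ribosomal share than the other neutrophil-like cells, at 2.72% in 61 cells and 3.79% in 832 cells, a ratio of 0.718 (0.704 to 0.733). In UMI per cell the order was reversed, with a median of 153 ribosomal UMI in immature and 85 in the other cells, at median totals of 6242 and 2500 UMI. Of the members, 29 were past 1.5-fold lower and 1 (Rpl7l1, on 11 UMI in immature cells) was past it higher, beside 44.2% and 18.2% of all genes.

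Counts of single members past 1.5-fold over all other gated cells followed the shares. A fold past 1.5 stands in for a call here, since 1 matrix gives no test. In T-like cells 62 of 80 members were past it higher and 1 (Rps27l) lower, the lower one not as a mean of per-cell shares, while 13.2% of all genes were higher and 28.9% lower. The median log2 fold of the members was 0.73 there, against −0.07 for all genes. In B-like cells 20 members were higher and 1 lower (all genes 15.6% and 33.7%), with a median log2 fold of 0.45. The member with the highest fold was Rpl12 in T-like cells, at 4337 CPM and 2.36-fold (2.34 to 2.39). In B-like cells it was Rps27, at 5770.1 CPM and 1.91-fold (1.89 to 1.93).

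At the low end, 79 of 80 members were past 1.5-fold lower in neutrophil-like cells, where 69.7% of all genes were lower and 12.5% higher. Their median log2 fold was −2.59, and −1.45 for all genes. In endothelial-like cells 75 were lower and 1 higher (all genes 28% lower and 28.5% higher), and in Kupffer-like cells 68 were lower and 1 higher (all genes 36.4% and 18.5%). Rps27l was the higher one in both. In Kupffer-like cells no member was past 1.5-fold higher with at most 5% mitochondrial UMI or with 2 gate markers and a margin of 1. Plasma-like cells had 21 lower and 3 higher, a smaller share lower than the 66.4% of all genes, with 7.28% of all genes higher. The higher ones were Rps27l, Rpl41 and Rpl10.

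In the other types few members departed from the remaining gated cells. NK-like cells had 0 higher and 1 lower (Rps19; all genes 12.1% and 25.6%), and ILC1-like cells had 0 and 3 (all genes 14.8% and 25.9%). Nonclassical monocyte-like cells had 0 higher and 4 lower (all genes 13.8% and 34.9%). Classical monocyte-like cells had 4 higher and 1 lower (all genes 14.5% and 34.7%), the higher ones being Rps27l, Rps9, Rpl10 and Rpl7a and the lower one Rpl12. In pDC-like cells 2 were higher, Rpl31 and Rpl10, and 3 lower (all genes 14.7% and 29.3%). By UMI, the most abundant members over the kept barcodes were Rps24 (332028), Rps29 (286710), Rpl13 (258207), Rplp1 (234201) and Rpl23 (232700). The level of a member in CPM was highest in T-like cells for 57 members and in B-like cells for 14, and lowest in neutrophil-like cells for 76.

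To find members out of step with the rest, the log2 ratio of a member to all other members was taken in each type and centred on its mean over the 11 types. A member was called out of step where the lower bound in its highest type and the upper bound in its lowest lay at least 1 log2 unit apart. This gap was met by 28 of 80 members, 14 of each subunit. The median range over types was 0.97 log2 units. Of the 28, 15 were lowest and 6 highest in neutrophil-like cells, and without that type 11 remained, all among the 28. The 5 members with the smallest range were Rpl34 (0.38 log2 units), Rpl11 (0.39), Rps13 (0.39), Rpl7 (0.40) and Rps3 (0.40). Rpl34 took between 1.14% of ribosomal UMI, in Kupffer-like cells, and 1.48%, in nonclassical monocyte-like cells.

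**Figure D2:**
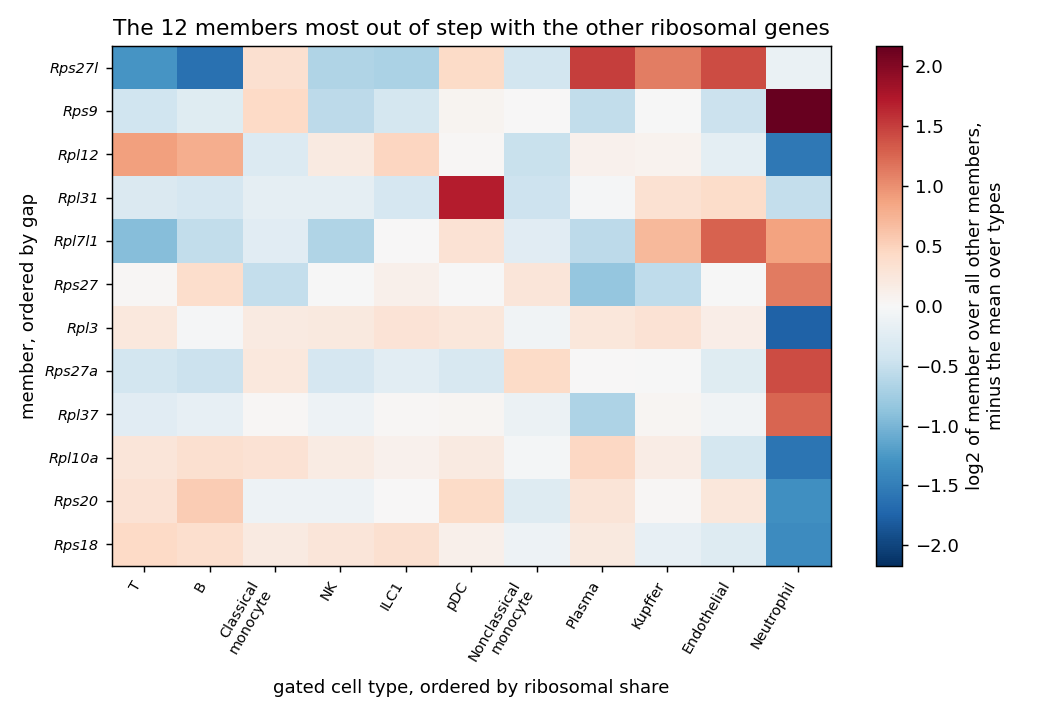
Log2 ratio of the 12 members with the largest gap (y axis, ordered by gap) to all other members, minus its mean over types, by gated cell type (x axis, ordered by ribosomal share); red is above and blue below the mean over types. The neutrophil column holds most of the strong colours, with Rps9 at 2.17 and Rpl3 at −1.76 log2 units, and Rpl31 stands alone in pDC-like cells at 1.71.

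Rps9 and Rps27a, both of the small subunit, were the members most in excess in neutrophil-like cells, ahead of Rpl37 and Rps27. Rps9, a protein of the small subunit body near the mRNA entry, took 8.02% (7.84 to 8.19) of ribosomal UMI in neutrophil-like cells, against 1.28% to 2.53% in the other types, with NK-like cells lowest and classical monocyte-like cells highest of these. Its level of 2910.3 CPM in neutrophil-like cells was 0.963 (0.941 to 0.986) of that in all other gated cells, so that Rps9 alone among the members was not past 1.5-fold lower there. Over the 307 neutrophil-like cells with at least 100 ribosomal UMI, the quartiles of its share were 5.84% and 9.84%, and the upper quartile of classical monocyte-like cells was 2.94%. The share was 6.24% in immature and 8.25% in the other neutrophil-like cells. Rps27a, made as a fusion with ubiquitin that is later cut off, took 5.04% in neutrophil-like cells and 1.42% to 2.60% in the other types, with nonclassical (2.60%) and classical (2.297%) monocyte-like cells next. Rps27, a zinc finger protein of the small subunit, took 4.04% in neutrophil-like cells, 2.45% in B-like cells and 1.06% in plasma-like cells, the lowest. These 3 members were all lower in neutrophil-like than in other gated cells as CPM, with folds of 0.963 for Rps9, 0.601 for Rps27a and 0.394 for Rps27.

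Other small subunit members were short in neutrophil-like cells. Rps20 and Rps18, both of the small subunit head, took 0.581% and 0.557% of ribosomal UMI in neutrophil-like cells, against 1.20% to 2.11% and 1.18% to 1.90% in the other types. In CPM, Rps20 stood at 210.9 in neutrophil-like cells, and its next lowest level was 1487 in Kupffer-like cells. Rps19 and Rpsa were also more than 1 log2 unit under their mean over types in neutrophil-like cells. Mutations of human RPS19 cause Diamond-Blackfan anaemia. Rps29 had its highest share in Kupffer-like cells, 4.78% of ribosomal UMI against 2.09% to 3.12% in the other types. Its level of 4855 CPM in Kupffer-like cells was 1.08-fold (1.07 to 1.09) that of all other gated cells, in a type where 68 members were past 1.5-fold lower.

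Among large subunit members, Rpl37 was in excess and Rpl12, Rpl3 and Rpl10a were short in neutrophil-like cells. Rpl37 took 2.95% of ribosomal UMI there, and 0.790% to 1.30% in the other types, with plasma-like cells lowest. Rpl12, which sits at the base of the ribosomal stalk, took 1.69% in T-like cells and 1.57% in B-like cells. It took 1.26% in ILC1-like cells, 1.04% in NK-like cells and 0.314% (0.279 to 0.352) in neutrophil-like cells. As CPM, Rpl12 had 4337 in T-like, 3708 in B-like, 687.7 in endothelial-like and 113.8 in neutrophil-like cells. The neutrophil level rested on 293 UMI and was 0.0435 (0.0386 to 0.0488) of that in all other gated cells.

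Rpl3, close to the site where peptide bonds form, took 0.245% of ribosomal UMI in neutrophil-like cells and between 0.787% and 1.02% in the other types. Rpl10a, of the L1 stalk, took 0.254% in neutrophil-like cells, 0.581% in endothelial-like cells, the next lowest, and 1.02% in plasma-like cells, the highest. Rpl35, Rpl36a and Rpl32 were the other large subunit members more than 1 log2 unit below their mean in neutrophil-like cells. Rps15a and Rps4x were also out of step and lowest in neutrophil-like cells, and Rps25 and Rpl9 were highest there, with gaps of 1.02 to 1.14 log2 units. Just inside the limit lay Rpl9 (1.02) and Rps4x (1.03), and among those just outside it was Rps24 (0.99). With 4 members above and 10 below by 1 log2 unit, neutrophil-like cells departed most. Their median absolute departure over the 80 members was 0.46 log2 units, and 0.11 to 0.22 in the other types.

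**Figure D3:**
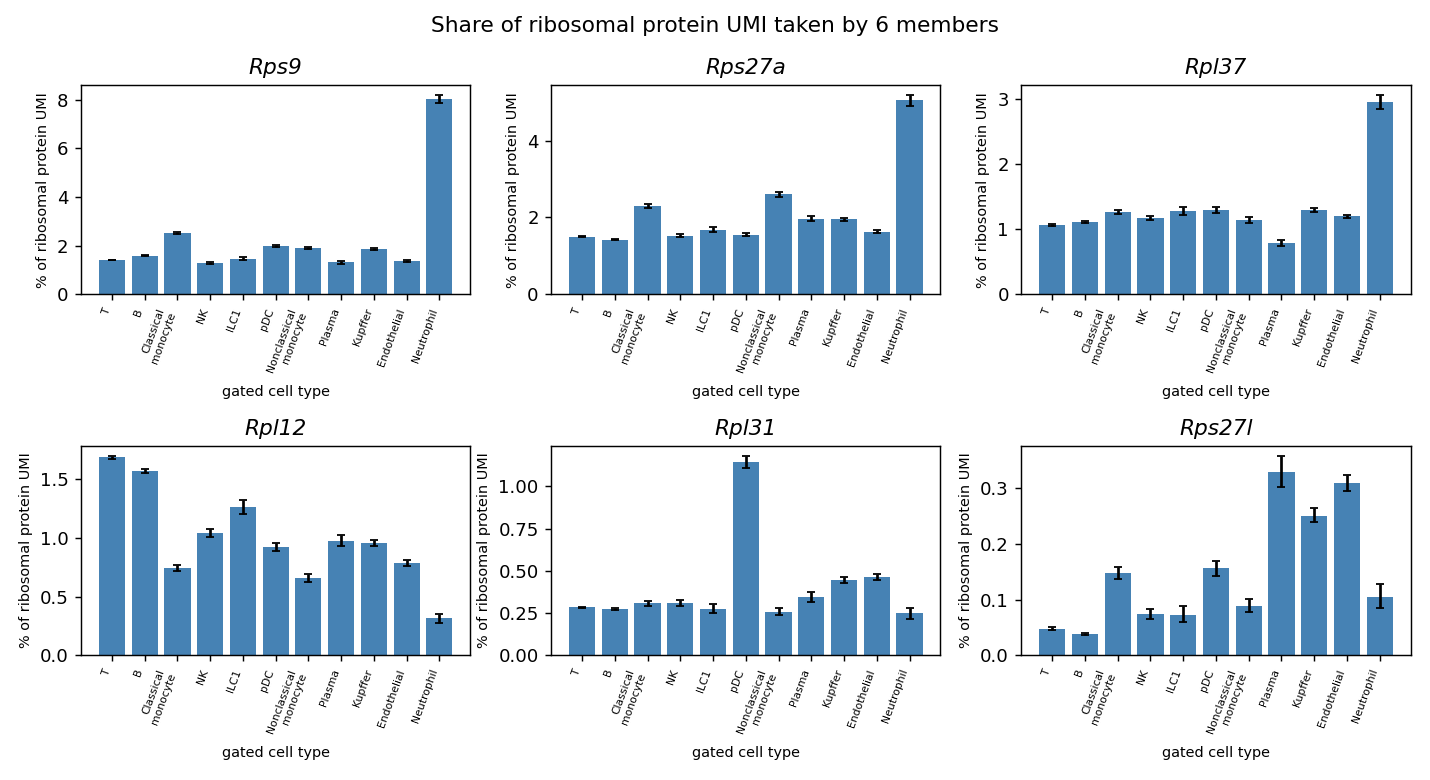
Share of ribosomal protein UMI (y axis, percent) taken by Rps9, Rps27a, Rpl37, Rpl12, Rpl31 and Rps27l in each gated cell type (x axis, ordered by ribosomal share); bars are shares of summed UMI and error bars exact 95% counting intervals. Rps9, Rps27a and Rpl37 peak in neutrophil-like cells (8.02%, 5.04% and 2.95%), Rpl31 in pDC-like cells (1.15%) and Rps27l in plasma-like cells (0.330%).

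Rpl31, a large subunit protein at the exit of the peptide tunnel, set pDC-like cells apart. It took 1.15% (1.11 to 1.18) of ribosomal UMI in pDC-like cells, against 0.247% to 0.463% in the other types, with neutrophil-like cells lowest and endothelial-like cells highest of these. Its level was 1875 CPM in pDC-like cells, 726.4 CPM in T-like cells, the next highest, and 89.7 CPM in neutrophil-like cells. The fold over all other gated cells was 3.34 (3.23 to 3.46), the highest of any member in any type. Over single cells, the quartiles of its share were 0.892% and 1.36% in pDC-like cells, and the upper quartiles of the other types reached 0.622% at most, in endothelial-like cells. Its gap was 1.99 log2 units with all types and 1.999 without neutrophil-like cells. Rpl10, which joins the large subunit late in its assembly, was the other member past 1.5-fold higher in pDC-like cells, at 3772 CPM and 1.74-fold (1.70 to 1.78).

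Plasma-like cells held 8 of the 28 out-of-step members at their highest share. Rpl41, the shortest of the ribosomal proteins, took 3.25% of ribosomal UMI there, against 1.20% to 2.39% in the other types, and stood at 4676 CPM (1.74-fold, 1.69 to 1.78). Rpl10 took 2.41% in plasma-like cells and 0.900% in T-like cells, the lowest. Rplp0, the stalk protein that anchors Rplp1 and Rplp2, took 2.21% in plasma-like cells and 0.869% in endothelial-like cells, the lowest. The other stalk protein that was out of step, Rplp1, peaked instead in Kupffer-like cells, at 3.10% against 1.21% in neutrophil-like cells. Rps6, the substrate of the S6 kinases, was highest in endothelial-like and lowest in B-like cells, with a gap of 1.03 log2 units. Plasma-like cells numbered 55, so that few cells carry these values.

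Of all members, Rps27l had the widest range over types, ahead of Rps9 (2.75 log2 units). Rps27l, a paralog of Rps27 that p53 induces, took 0.330% (0.303 to 0.359) of ribosomal UMI in plasma-like cells, 0.310% in endothelial-like, 0.251% in Kupffer-like and 0.0379% in B-like cells, a range of 3.13 log2 units. As a share of the UMI of Rps27 and Rps27l together, Rps27l made up 23.8% (22.1 to 25.6) in plasma-like cells. It made up 16.4% in Kupffer-like, 14.2% in endothelial-like, 10.0% in classical monocyte-like and 7.68% in pDC-like cells. In the remaining types it lay between 1.52%, in B-like cells, and 3.82%, in NK-like cells. Its level in CPM was 474.2 in plasma-like, 271.6 in endothelial-like, 122.6 in T-like, 89.3 in B-like and 38.1 in neutrophil-like cells. Rps27 itself was lowest in Kupffer-like cells, at 1304 CPM, and highest in B-like cells, at 5770.1 CPM. Rps27rt, another Rps27 copy, stayed between 4.51% and 6.54% of its pair with Rps27 in every type.

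**Figure D4:**
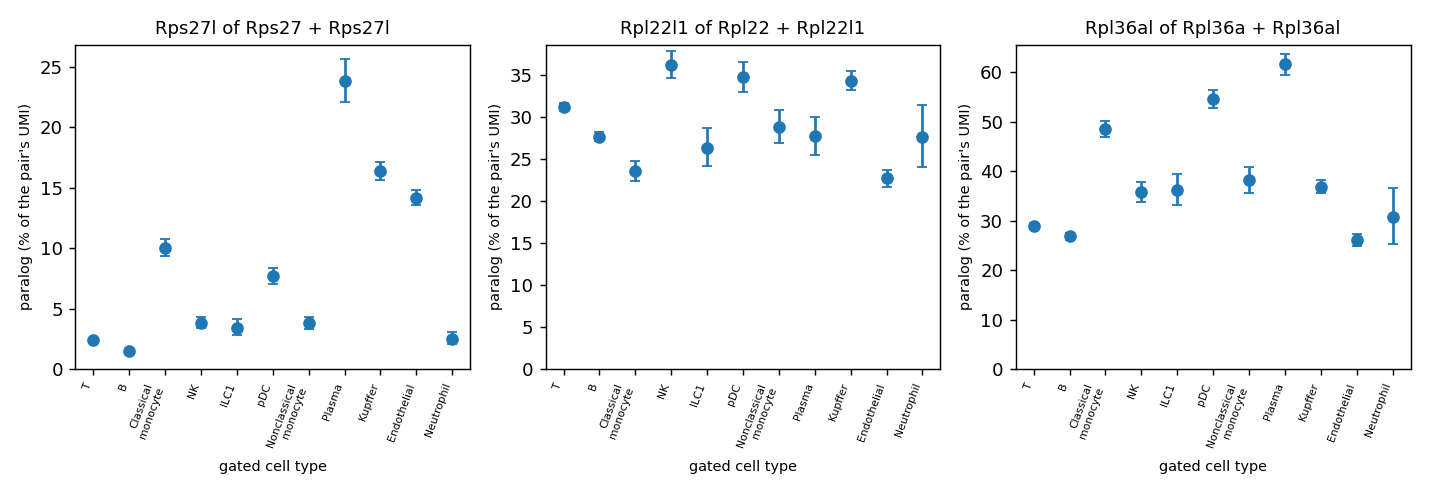
Share of a pair's UMI (y axis, percent) taken by Rps27l (left), Rpl22l1 (middle) and Rpl36al (right) in each gated cell type (x axis, ordered by ribosomal share); points are shares of summed UMI and error bars exact 95% counting intervals. Rps27l ranges from 1.52% in B-like to 23.8% in plasma-like cells, and Rpl36al from 26.2% in endothelial-like to 61.7% in plasma-like cells.

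The Rpl22 pair varied less. Rpl22, an RNA-binding large subunit protein whose loss in mice arrests alpha-beta T cell development, had 1755 CPM in T-like, 1649 CPM in B-like and 163.5 CPM in neutrophil-like cells. Its paralog Rpl22l1 made up 36.2% of the pair in NK-like, 34.8% in pDC-like, 34.4% in Kupffer-like and 31.2% in T-like cells. The lowest shares were 23.6% in classical monocyte-like and 22.7% in endothelial-like cells. Rpl36al, which the naming rule does not count as a member, made up 61.7% (59.6 to 63.7) of its pair with Rpl36a in plasma-like cells, 54.6% in pDC-like cells and 48.5% in classical monocyte-like cells. In the other types it lay between 26.2% and 38.2%. Its level was 1190.0 CPM in plasma-like cells, 2.95-fold that of all other gated cells, while Rpl36a stood at 0.859-fold there.

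Rpl7l1, a paralog of Rpl7 whose human counterpart acts in the assembly of the large subunit, made up 5.90% of its pair in endothelial-like cells, 5.30% in neutrophil-like cells (48 UMI) and 4.58% in Kupffer-like cells. In T-like cells it made up 1.77%. The paralogs known from striated muscle and testis were near 0. Rpl3l had 30 UMI in neutrophil-like cells, 11.6% (7.95 to 16.1) of its pair with Rpl3, and 20 UMI in nonclassical monocyte-like cells, 1.03% of the pair. In the other types it had 0 to 3 UMI. Rpl39l had at most 19 UMI in a type, in Kupffer-like cells, and Rpl10l had 1 UMI in all gated types together.

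Near-identical copies limit these values. In the last 300 bases of the longest coding transcript (GENCODE M21), 37 of 80 members shared 50-base stretches with another gene at over 50% of positions, and 25 shared none. Of the 28 out-of-step members, 13 shared over 50%, so that reads could be split between copies or dropped if the library reads 3′ ends, which the labels do not give. For Rps27, Rpl10 and Rpl36a the shared part was 100%, for Rps27a and Rpl10a 86.9%, for Rps18 78.5%, for Rps6 83.3%, for Rpl3 76.5%, for Rplp1 66.9%, for Rpl22l1 63.3%, for Rpl41 62.9% and for Rps29 48.6%. It was 14.3% for Rps9 and 0 for Rpl31, Rpl12, Rps27l, Rpl37 and Rps20. How the authors counted reads that match several genes is not stated in the labels.

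Other genes of the translation machinery varied between types in different degrees. Of 18 translation partners, which include elongation and initiation factors and the ribosomal fusion gene Fau, 10 were past 1.5-fold higher and 0 lower in T-like cells. In neutrophil-like cells 17 were lower and 0 higher. Of all genes, 13.2% were higher and 28.9% lower in T-like cells, and 12.5% higher and 69.7% lower in neutrophil-like cells. The summed CPM of the partners in neutrophil-like cells was 0.355 of that in all other gated cells, beside 0.191 for the ribosomal protein genes. Fau alone held 3770.2 of the 8576 summed CPM there. The median log2 fold there was −2.29 for the partners and −2.59 for the ribosomal protein genes, so the typical levels were closer than the sums. Fau, whose product is cut into a ubiquitin-like protein and a small subunit protein, was the partner not past 1.5-fold lower in neutrophil-like cells. It stood at 3770.2 CPM and 0.911-fold (0.893 to 0.930) there. Eef1a1, the factor that brings aminoacyl-tRNA to the ribosome, stood at 625.7 CPM in neutrophil-like cells (0.148-fold) and 5246.9 CPM in T-like cells (1.45-fold). Tpt1, the most abundant of the list, stood at 2427 CPM in neutrophil-like cells (0.362-fold) and 8865 CPM in T-like cells (1.57-fold).

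Genes of nucleolar ribosome assembly stood lower than the ribosomal protein genes in monocyte-like cells. Of 24 listed genes, 21 had at least 1000 UMI. In B-like cells 10 of them were past 1.5-fold higher and 1 lower, with a summed ratio of 1.505 to all other gated cells, and in T-like cells 4 were higher and 0 lower (1.35). In neutrophil-like cells 19 were lower and 1 higher (0.219). In classical monocyte-like cells 13 were lower and 1 higher, with a summed ratio of 0.658, while the ribosomal protein share there was 1.02 times that of all other gated cells. Nonclassical monocyte-like cells had 12 lower and 1 higher, at 0.653, and plasma-like cells 12 lower and 0 higher, at 0.668. The share of all genes that was lower was 69.7% in neutrophil-like, 66.4% in plasma-like, 34.7% in classical and 34.9% in nonclassical monocyte-like cells. Of all genes, 15.6% were higher and 33.7% lower in B-like cells, and 13.2% higher and 28.9% lower in T-like cells. The share of all genes that was higher was 12.5% in neutrophil-like and 7.28% in plasma-like cells. It was 14.5% in classical and 13.8% in nonclassical monocyte-like cells. Ncl, nucleolin, had 867.9 CPM in B-like, 800.9 CPM in T-like and 158.1 CPM in neutrophil-like cells. Nop10, a small protein of the RNA-guided pseudouridylation complex, had 16.7 CPM and Ubtf, a factor of RNA polymerase I, 51.7 CPM in neutrophil-like cells (0.146-fold and 0.451-fold). Genes of the mitochondrial ribosome, 68 of 78 with at least 1000 UMI, were lower in neutrophil-like cells for 60 of 68 and higher for 1 (0.462), where 69.7% of all genes were lower. The higher one was Mrpl33, at 4.996-fold, and its 641.3 CPM were a large part of the 1526 summed CPM there. The median log2 fold in neutrophil-like cells was −2.53 for these 68 genes and −3.48 for the 21 assembly genes. It was −2.59 for the ribosomal protein genes. Mrpl30 and Mrpl52 stood at 0.283-fold and 0.163-fold there. In endothelial-like and Kupffer-like cells, where the ribosomal protein share was 0.447 and 0.526 times that of other gated cells, their summed ratios were 1.03 and 0.984.

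**Figure D5:**
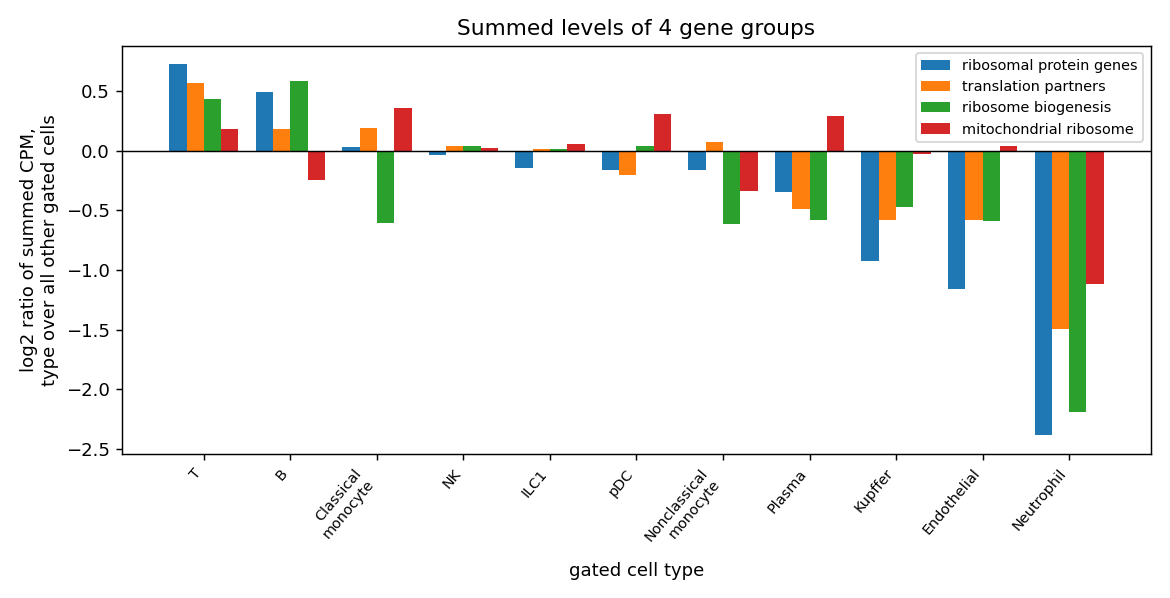
Log2 ratio of summed CPM in a gated cell type over all other gated cells (y axis) for ribosomal protein genes, translation partners, ribosome biogenesis genes and mitochondrial ribosome genes (bars, in that order), by type (x axis, ordered by ribosomal share). All 4 groups are below 0 in neutrophil-like cells, and in Kupffer-like and endothelial-like cells the mitochondrial ribosome bars are near 0 while the other bars are below it. Bars are ratios of sums, in which abundant genes, such as Fau and Mrpl33 in neutrophil-like cells, weigh most.

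Regulators of ribosome production did not form 1 pattern. Of 18 listed, 14 had at least 1000 UMI, and 4 were past 1.5-fold higher and 8 lower in neutrophil-like cells, beside 12.5% and 69.7% of all genes. The count of lower regulators there was thus no higher than that background. Mxd1, a MAX partner that opposes MYC, had 2146 CPM in neutrophil-like cells, 19.2-fold (18.5 to 19.95) that of all other gated cells. Pim1, a kinase downstream of cytokine receptors, had 2283 CPM in neutrophil-like cells (4.76-fold). Myc, chosen after its values were seen, had 121.7 CPM in B-like cells, 8.89-fold (8.04 to 9.84), and 16.2 CPM in T-like cells, the type with the highest ribosomal share. In neutrophil-like cells Myc had 6 UMI, or 2.33 CPM. Zfp36l2, an mRNA decay factor, had 2786 CPM in ILC1-like, 2480 CPM in NK-like and 1726 CPM in T-like cells.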

How the data were processed

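Per the labels, liver cells of 1 Rcrin KO and 1 WT sample were profiled with 10x Chromium. The values in the deposited matrices are raw UMI counts, whole numbers with no scaling. The submitters' processing notes name Cell Ranger 2.1.1 with STAR, Seurat 2.3.4 and mm10, while the header of the deposited matrix carries software version 3.0.0. The role of each tool, and whether the kit reads 3′ or 5′ ends, is not given in the sources used for this work.

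Counts were analysed in Python 3.11.15 with numpy 2.4.6, scipy 1.17.1 and scanpy 1.11.5, whose Scrublet called doublets with a fixed seed. UMI were summed per gated type. Shares have Clopper-Pearson intervals, CPM exact Poisson intervals and ratios exact conditional intervals, all at 95%. A share of single cells was taken over cells with at least 100 ribosomal UMI for single members. Depth per cell limits precision for neutrophil-like cells most. Ratios and intervals were run on simulated Poisson counts with known folds. The intervals assume that same model, so the simulation could not check them against variation between cells or animals. Promoter windows were credited to RefSeq (GRCm38.p6).

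The members, gene lists and markers were chosen with earlier results of these data known, and no list is independent support. Named by rule were the 12 members with the largest gap, the 5 with the smallest range, the 5 most abundant, those at the UMI limit, the paralog pairs, and the 3 most abundant genes of each further list; other members, and Myc, were chosen after their values were seen. Types with under 50 cells were not described further. Rps4l and Rpl6l were not matched, and protein sequences were not used here. Some single genes are not reported here.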

Additional observations from a re-analysis of the deposited data

How the results depend on the processing

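The share in T-like cells was 25.7% and that in neutrophil-like cells 3.63%. With at most 5% mitochondrial UMI they were 25.1% and 3.50%, with doublets kept 25.66% and 4.11%, with 4 gate markers and a margin of 3 26.1% and 3.41%, and with 2 markers and a margin of 1 25.5% and 3.91%. With a total that leaves out mitochondrial, haemoglobin and hepatocyte genes they were 27.0% and 3.71%, and as means of per-cell shares 25.09% and 3.57%. Without the 37 members with shared transcript ends, an alternative chosen after the data were seen that has fewer members by construction, they were 14.3% and 2.004%. The share of classical monocyte-like cells over other gated cells was 1.02 and turned to 0.986 as a mean of per-cell shares; the cause was not tested. At 2-fold in place of 1.5-fold, 5 pairs of member and type were higher and 162 lower, in place of 93 and 257. With a gap of 0.5 in place of 1, 65 members were out of step in place of 28. Neutrophil-like and plasma-like cells were left out in turn after the data were seen. Without neutrophil-like cells 11 members were out of step, all among the 28. Of the 12 with the largest gap, only Rps27l, Rpl31, Rpl7l1, Rpl12 and Rps27 were among these 11. The gaps of Rps9 (0.93), Rps27a (0.84), Rpl3, Rpl37, Rpl10a, Rps20 and Rps18 fell under 1. Without plasma-like cells the count was 26. With all types kept and the other cell filters, gates, totals and weights, the count lay between 24 and 33. The 12 members with the largest gap then kept their highest type and a gap of at least 1 in all 84 cases. The sizes moved: the gaps of Rpl12, Rpl10a and Rps18 were 2.27, 1.77 and 1.66. With doublets kept they were 1.74, 1.29 and 1.19, and with 4 gate markers and a margin of 3 they were 2.50, 2.09 and 1.92. With at most 5% mitochondrial UMI, pDC-like cells fell from 250 to 49, under the limit of 50, and B-like cells from 2991 to 525. The gap does not use the total UMI, so the setting with another total could only repeat the main gaps. No paired analysis was possible because both samples hold 1 matrix, and no replicate could be left out. At 87 ribosomal UMI per cell, single neutrophil-like cells say little about single members.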
